A study of Mus musculus with 8 samples.

Results

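The genes described here are those whose symbol starts with Kcn, the prefix given to potassium channel pore subunits and to several of their auxiliary subunits. Of 13769 protein-coding genes listed for mouse arcuate nucleus, 72 carry that prefix. The table for the knockout comparison lists 70 of them, the table for the sponge comparison 69, and 67 have a value in all 8 libraries. Among the listed genes they were picked by the prefix, but this gene group was chosen with earlier results of these data known. A further 23 genes with the prefix were not analysed here because the tables used have no row for them.

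The arcuate nucleus, a hypothalamic region that holds the POMC and AgRP neurons controlling food intake, was cut from brain sections of C57BL/6 mice aged 4 months. Each library was made from the pooled tissue of 2 mice, and each of 4 groups has 2 libraries. Male Pomc-Cre;miR-17-92flox/flox mice, in which Cre made under the Pomc promoter deletes the miR-17-92 microRNA cluster, were set against male wild type littermates. Female Pomc-Cre;miR-7-sponge mice, in which Pomc-Cre turns on a transcript that binds the microRNA miR-7, were set against female wild type littermates. The wild type females and males were also compared with each other. No deletion, Cre or sponge is named for the wild type mice. The manipulations were directed to Pomc-Cre cells, whereas the libraries hold RNA of the whole dissected tissue. In such tissue, fewer cells of a type and less RNA per cell cannot be told apart. The labels state that one of the raw read files of sponge replicate 2 is missing.

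The unit is FPKM, a count of sequenced fragments divided by transcript length and by the size of the library, so levels can be compared between genes. FPKM summed to between 141666 and 152741 per library, and 0 to 4 of the potassium channel genes were listed at 0 in a library. All 6 arcuate neuron markers checked were detected in all 8 libraries, with a summed level of 87.2 to 211 FPKM. Pomc itself ranged from 12.4 to 90.4 FPKM. Neuron markers summed to 255 to 330 FPKM and astrocyte markers to 358 to 464 FPKM. Markers of neighbouring tissue were uneven. Pituitary hormone genes summed to 336 FPKM in knockout replicate 1 and to between 5.23 and 69.4 FPKM elsewhere, and choroid plexus markers summed to 529 FPKM in wild type female replicate 2 and to between 8.35 and 45.4 FPKM elsewhere. Most of the 529 FPKM was Ttr, at 510 FPKM, with Clic6 at 14.6 FPKM there and 11.8 FPKM in wild type female replicate 4. Meningeal markers summed to 343 and 231 FPKM in the knockout libraries and 239 FPKM in sponge replicate 1, against 67.5 to 94.7 FPKM in the other 5. Most of these higher sums was Ptgds, at 327 and 222 FPKM in the knockout and 229 FPKM in sponge replicate 1. Col1a1 and Ogn were also higher in these libraries than in the other 5, whereas Dcn and Lum overlapped. Folr1 of the choroid plexus list and Tshb of the pituitary list had no row, and Cga was listed at 0 in at least 1 library.

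Potassium channels let potassium leave or enter a cell and so set its resting potential, the shape of its action potentials and its firing rate. In arcuate neurons, ATP-sensitive (K-ATP) channels close when ATP rises and couple firing to glucose. G protein-gated inward rectifiers (GIRK) open on transmitter binding and silence the cell. The M-current, carried by channels of the Kcnq family, limits repetitive firing, and two-pore channels carry the leak that holds the resting potential. MicroRNAs bind matching sites in the 3' UTR of mRNAs through their seed, bases 2 to 8, and lower the level or the translation of those mRNAs.

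The mature sequences of the microRNAs manipulated are shown because the seed defines the sites searched for in the channel mRNAs. They are from RefSeq (GRCm38.p6), 5′ to 3′, with the seed in capitals. The members of the cluster fall into 4 seeds, since miR-17-5p shares its seed with miR-20a-5p and miR-19a-3p with miR-19b-3p, and miR-7a-5p and miR-7b-5p share another.
mmu-miR-7a-5p: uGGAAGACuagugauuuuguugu
mmu-miR-17-5p: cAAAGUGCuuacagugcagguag
mmu-miR-18a-5p: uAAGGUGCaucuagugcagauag
mmu-miR-19a-3p: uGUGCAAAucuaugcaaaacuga
mmu-miR-92a-3p: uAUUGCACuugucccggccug

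The potassium channel genes were mostly expressed at low to moderate levels. The mean over the libraries was under 1 FPKM for 18 genes, 1 to under 5 for 29, 5 to under 10 for 21, and 10 or more for 4. Those 4 were Kcnj10 (Kir4.1, the main potassium conductance of astrocytes) at a mean of 38.7 FPKM, Kcnab2 (the Kvβ2 auxiliary subunit) at 14.6, Kcnma1 (the pore of the BK channel, opened by calcium and voltage) at 11.4 and Kcnip4 (an auxiliary subunit of Kv4 channels) at 10.9. The plot of the levels by library shows how much wider some genes spread than others. Kcnt1, a sodium-activated channel, was the steadiest between replicates, at 5.28 to 6.54 FPKM over the 8 libraries. Kcnj10 spread the most, from 0.37 to 71.8 FPKM.

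**Figure D1:**
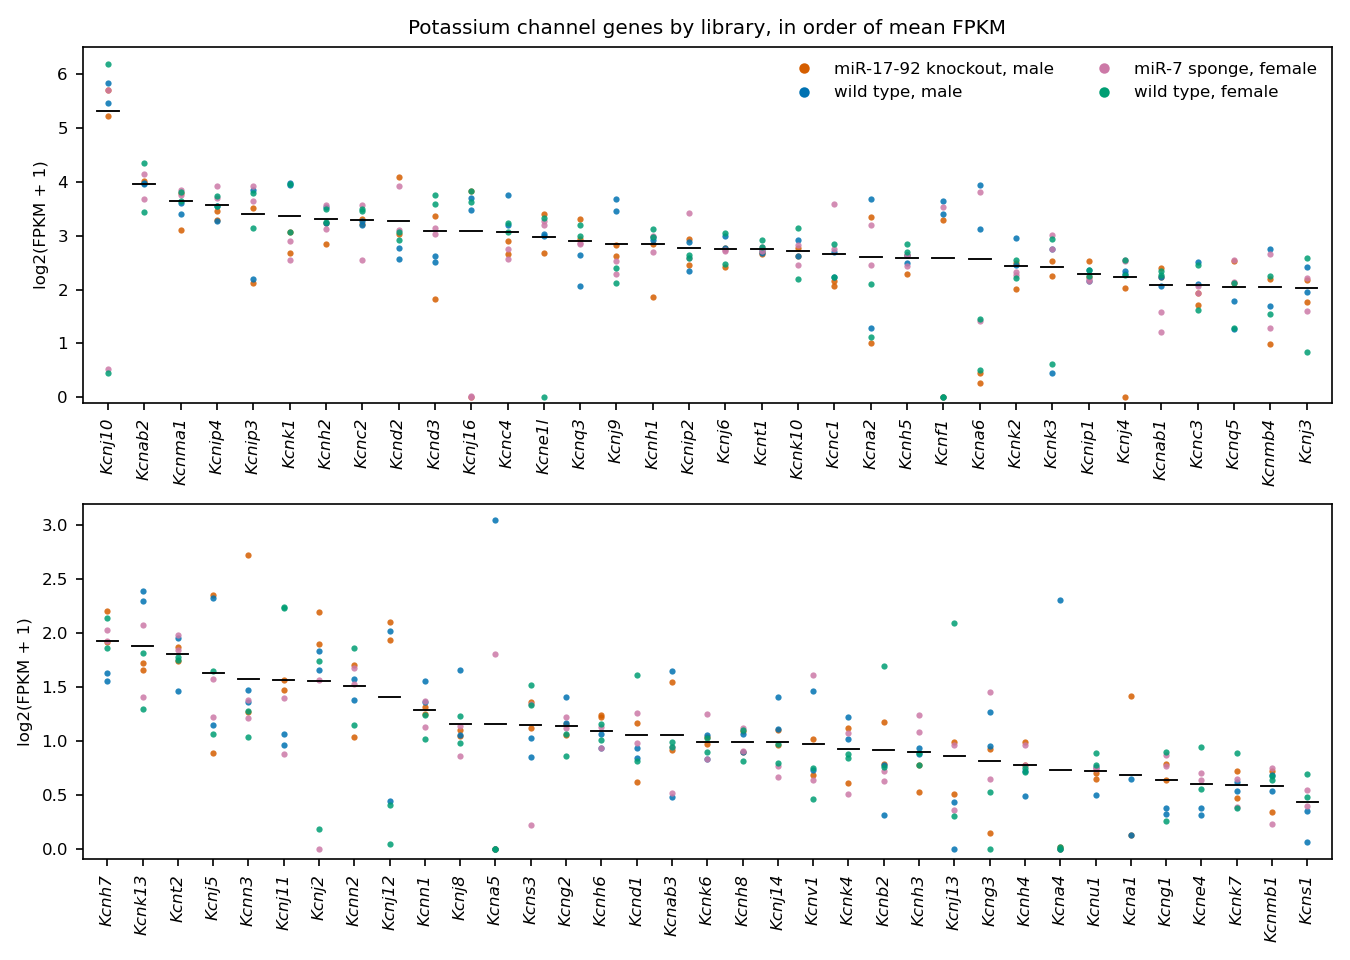
Level of 69 of the potassium channel genes on the log2(FPKM + 1) scale (vertical axis) in order of mean FPKM, with 1 point per library coloured by group and a black bar at the level of the mean FPKM. Kcnj10 leads with a mean of 38.7 FPKM and has points near 0 in 2 libraries, whereas Kcnt1 varies little, from 5.28 to 6.54 FPKM.

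In the knockout comparison, 67 of the members had a mean of 0.5 FPKM or more in the 4 libraries and were tested with limma on log2(FPKM + 1), with p-values adjusted over all 13155 genes tested. None of them passed an adjusted p of 0.05, where 0.0608% of all genes did. At an unadjusted p under 0.05 there were 3 members higher and 4 lower in the knockout, where 3.22% of all genes were higher and 2.11% lower. In 26 of the 67 members (38.8%) the 2 knockout libraries did not overlap the 2 wild type libraries, near the 38.5% of all genes. Those were 10 higher and 16 lower, while among all genes 22.5% were higher and 16.0% lower. The fold change was positive for 29 members and negative for 38, beside a positive one for 53.9% of all genes, and the median log2 fold change was -0.08 for the members and 0.03 for all genes tested.

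In the sponge comparison, 67 members were tested among 13157 genes. A single member, Kcnj16, passed the adjusted p of 0.05, and it was lower in the sponge, beside 0.106% of all genes called in either direction and 0.0532% called lower. No member was higher and 5 were lower at an unadjusted p under 0.05, where 1.65% of all genes were higher and 2.11% lower. The groups did not overlap in 21 members (31.3%), close to the 30.8% of all genes. Of these 21, 8 were higher and 13 lower, beside 12.1% and 18.8% of all genes. The fold change was positive for 33 members and negative for 34, with 44.0% positive among all genes, and the median was -0.02, with -0.03 for all genes tested. With 2 libraries against 2, an exact two-sided permutation test of a single gene cannot go below p = 0.333.

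The K-ATP pore subunits were Kcnj11 (Kir6.2, the pore of neuronal K-ATP channels) and Kcnj8 (Kir6.1, found mainly in vessels). Kcnj11 stood at 1.77 and 1.95 FPKM in the knockout and 0.95 and 1.08 FPKM in wild type males. In the sponge it was at 1.64 and 0.83 FPKM, and in wild type females at 3.70 and 3.74 FPKM. Both wild type female libraries were thus above all other libraries, both knockout libraries were above the wild type males, and both sponge libraries were below the wild type females.

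Kcnj11 differed by 0.50 ± 0.18 (log2 fold change ± SE) in the knockout, with a limma adjusted p of 0.792, and by -1.10 ± 0.24 in the sponge, with a limma adjusted p of 0.692. Neither passed the threshold. The difference between these 2 effects was 1.61 ± 0.29 on the log2 scale, with a limma adjusted p of 0.570 in a fit of all 8 libraries. In the mean, the sponge libraries were 3.02-fold below the wild type females. Kcnj8 overlapped between the groups of both comparisons and ranged from 0.82 to 2.15 FPKM over the 8 libraries. Abcc8, the sulfonylurea receptor that completes the neuronal K-ATP channel, was at 1.54 and 1.73 FPKM in the knockout and 1.75 and 2.31 FPKM in wild type males, a log2 difference of -0.20 that did not pass. Abcc8 was at 1.79 and 2.01 FPKM in the sponge and 1.85 and 1.97 FPKM in wild type females. These overlapped, at a log2 difference of -0.006.

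The GIRK subunits were all detected, and the 4 of them summed to 16.0 and 16.3 FPKM in the knockout and 23.7 and 23.1 FPKM in wild type males. Most of that gap came from Kcnj9 (GIRK3, a subunit that assembles with other GIRK subunits). Kcnj9 was at 5.18 and 6.10 FPKM in the knockout and 9.94 and 11.7 FPKM in wild type males. The females had lower values, with 4.77 and 3.87 FPKM in the sponge and 3.35 and 4.28 FPKM in wild type females. The wild type males were thus the highest of the 8 libraries, and the knockout males lay between them and the females.

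Kcnj9 differed by -0.83 ± 0.20 in the knockout (limma adjusted p = 0.690) and by 0.15 ± 0.19 in the sponge (limma adjusted p = 1.0). Kcnj6 (GIRK2, the main neuronal subunit) was at 4.33 and 5.85 FPKM in the knockout, 6.91 and 5.83 FPKM in wild type males, 5.64 and 5.60 FPKM in the sponge and 4.57 and 7.23 FPKM in wild type females. Its groups overlapped in both comparisons. Kcnj3 (GIRK1) and Kcnj5 (GIRK4) also overlapped. Kcnj5 stood at 4.10 and 4.00 FPKM in replicate 1 of the knockout and of the wild type males, and at 0.84 to 2.12 FPKM in the other 6 libraries. The knockout fold change was below 0 for all 4 GIRK genes, at a median of -0.25, and 1 of the 4 had an unadjusted p under 0.05, beside 2.11% of all genes that were lower at that p. With a library left out, Kcnj3 reached up to 0.019 and Kcnj5 up to 0.62, so their sign was not stable, and the median was -0.42 without knockout replicate 1, -0.44 without knockout replicate 2 and -0.55 without wild type male replicate 2. In the sponge the median was 0.10, with none at that p, and it turned to -0.07 without sponge replicate 2 and to -0.15 without wild type female replicate 2.

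Of the M-current subunits, Kcnq3, part of the classic neuronal M channel, and Kcnq5, which can join it, were detected in all 8 libraries. Kcnq3 was at 6.65 and 8.88 FPKM in the knockout and 5.24 and 3.20 FPKM in wild type males. Kcnq5 was at 3.37 and 4.79 FPKM in the knockout and 2.45 and 1.40 FPKM in wild type males. For both genes, the 2 knockout libraries were above the 2 wild type male libraries.

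The log2 fold change in the knockout was 0.76 ± 0.29 for Kcnq3 and 0.81 ± 0.29 for Kcnq5, each with a limma adjusted p of 0.792, so neither passed. In the sponge, Kcnq5 was at 3.39 and 4.88 FPKM against 1.45 and 3.32 FPKM in wild type females. The sponge libraries lay above the wild type ones by a narrow margin, at a log2 fold change of 0.64 ± 0.35 and a limma adjusted p of 1.0. Kcnq3 went the other way there, at 6.26 and 6.21 FPKM against 6.91 and 8.13 FPKM, with a log2 fold change of -0.23 ± 0.16 and a limma adjusted p of 1.0. The median log2 fold change of the 4 M-current genes tested was 0.52 in the knockout and 0.03 in the sponge. The knockout median was 0.28 without knockout replicate 2 and 0.34 without wild type male replicate 2, and the sponge median was 0.10 without wild type female replicate 2 and -0.063 without wild type female replicate 4.

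**Figure D2:**
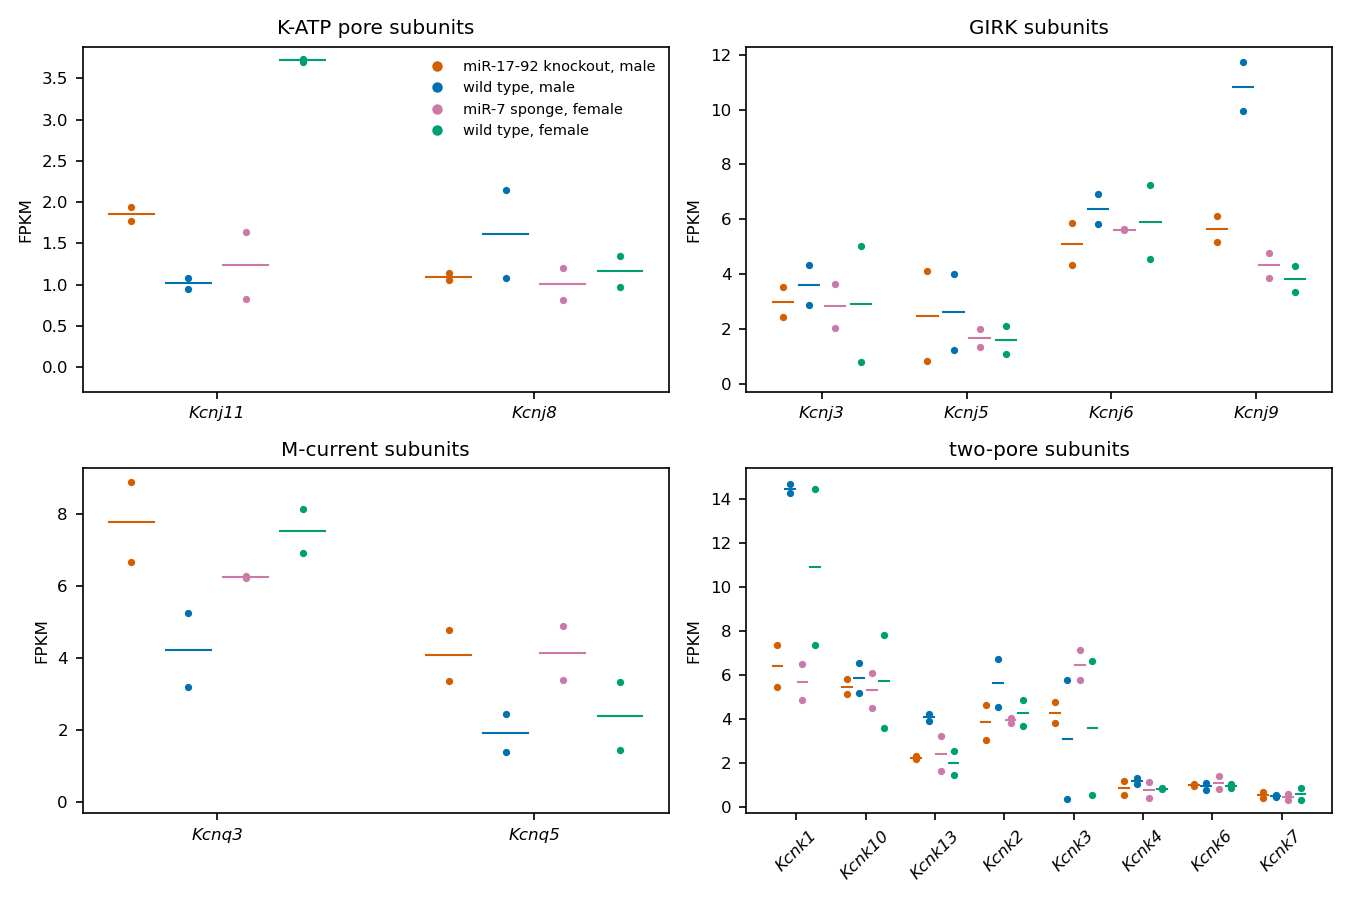
FPKM (vertical axis) of K-ATP, GIRK, M-current and two-pore subunits, with 1 point per library and a bar at each group's mean. Kcnj11 is highest in wild type females at 3.70 and 3.74 FPKM and Kcnj9 in wild type males at 9.94 and 11.7 FPKM, while Kcnq3 and Kcnq5 are lowest in wild type males by mean.

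Of the two-pore leak channels, Kcnk1 (TWIK-1, also abundant in astrocytes) had the highest mean. It was at 7.36 and 5.43 FPKM in the knockout and 14.7 and 14.2 FPKM in wild type males, and at 6.50 and 4.84 FPKM in the sponge and 7.34 and 14.4 FPKM in wild type females. In both comparisons the manipulated libraries were below the wild type ones, but wild type female replicate 2 lay within the range of the knockout males. The log2 fold change was -1.07 ± 0.21 in the knockout (limma adjusted p = 0.505) and -0.78 ± 0.36 in the sponge (limma adjusted p = 1.0).

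Kcnk13 (THIK-1, known as the resting potassium channel of microglia) was at 2.16 and 2.29 FPKM in the knockout and 4.22 and 3.89 FPKM in wild type males, without overlap. Its log2 fold change was -0.65 ± 0.18 with a limma adjusted p of 0.792. The microglia markers summed to 68.5 and 51.0 FPKM in the knockout and 90.3 and 32.4 FPKM in wild type males. By sum, the wild type libraries were thus the highest and the lowest of the 4. The markers did not move together between the wild type males. C1qa, Csf1r and Cx3cr1 were higher in replicate 1, and P2ry12 and Tmem119 in replicate 2. Cx3cr1 was at 9.30 and 0.037 FPKM there, and was listed at 0 in sponge replicate 2 and both wild type female libraries. The part of microglia in the Kcnk13 level was not tested. Kcnk2 (TREK-1) and Kcnk10 (TREK-2), both opened by stretch and lipids, overlapped in both comparisons, at 3.02 to 6.72 FPKM and 3.57 to 7.82 FPKM over the 8 libraries. Kcnk4, Kcnk6 and Kcnk7 had means under 1 FPKM. The median log2 fold change of the 8 two-pore genes was -0.17 in the knockout and -0.05 in the sponge. The knockout median was -0.078 without knockout replicate 1 and -0.36 without wild type male replicate 2, and the sponge median was -0.14 without sponge replicate 1 and 0.22 without sponge replicate 2.

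The other inward rectifiers held the gene that was called. Kcnj16 (Kir5.1, which has no current of its own and joins Kir4.1 in astrocytes) was at 0.014 FPKM and listed at 0 in the sponge, and at 11.3 and 13.3 FPKM in wild type females. Among the males it was at 13.1 FPKM in knockout replicate 1, listed at 0 in knockout replicate 2, and at 10.1 and 11.9 FPKM in the wild types. Thus 3 of the 8 libraries were at or near 0, and all 5 others were above 10 FPKM. The gene lies at chr11:110968033-111027968 on the plus strand (mm10/GRCm38, as the deposited tables list it).

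The log2 fold change of Kcnj16 in the sponge was -3.72 ± 0.16 on the log2(FPKM + 1) scale, with a limma adjusted p of 0.0307. With a pseudocount of 0.1 it was -6.85 ± 0.30. The call did not hold when any 1 of the 4 libraries was left out, with adjusted p between 0.217 and 0.237, or in the fit that took its spread from all 8 libraries, which include the knockout pair, with an adjusted p of 1.0. In the knockout the replicates were on either side, and the gene did not pass.

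Kcnj10, the partner of Kcnj16 in Kir4.1/Kir5.1 channels, was at 36.0 and 51.2 FPKM in the knockout, 55.7 and 43.1 FPKM in wild type males, 51.0 and 0.44 FPKM in the sponge and 0.37 and 71.8 FPKM in wild type females. The libraries near 0 were 1 sponge and 1 wild type female library, so the groups overlapped and the fold change in the sponge was -0.20 ± 2.71. The libraries low in Kcnj10 were not the same as those low in Kcnj16, apart from sponge replicate 2. The 6 astrocyte markers summed to 358 and 442 FPKM in the libraries low in Kcnj10. In those low in Kcnj16 they summed to 389, 397 and 358 FPKM, the lowest 3 sums of the 8 libraries, the others being at 408 to 464 FPKM. Within the list, Gja1 was at 0.023 FPKM in sponge replicate 2 and 0.064 FPKM in knockout replicate 1, against 49.4 to 63.6 FPKM in the other 6, and Aqp4 was at 3.28 FPKM in sponge replicate 1, against 16.5 to 30.2 FPKM in the other 7. The part of astrocyte content in the levels of Kcnj10 and Kcnj16 was not tested. Over the 8 libraries, the members whose log2(FPKM + 1) was most like that of Kcnj16 among the 67 with full values included Kcnk1 (Pearson r = 0.76) and Kcnab1 (0.62), as a description only.

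Kcnj13 (Kir7.1, an epithelial channel of the choroid plexus) was at 3.26 FPKM in wild type female replicate 2 and at 0.99 FPKM or below elsewhere. Wild type female replicate 2 was also the library with the high choroid plexus marker sum of 529 FPKM, of which 510 FPKM was Ttr. The part of that tissue in the Kcnj13 level was not tested. Kcnj2 (Kir2.1, a strong inward rectifier) was listed at 0 in sponge replicate 1 and was at 0.13 FPKM in wild type female replicate 4, beside 1.94 to 3.57 FPKM in the other 6. Kcnj4 (Kir2.3) was listed at 0 in knockout replicate 2 alone, and was at 3.08 to 4.86 FPKM in the others.

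Among the voltage-gated pore subunits, Kcna6 (Kv1.6, a delayed rectifier) had the most negative log2 fold change of all members in the knockout. It was at 0.21 and 0.38 FPKM in the knockout and 14.3 and 7.65 FPKM in wild type males, without overlap and 37.7-fold lower in the mean. The values were 13.0 and 1.69 FPKM in the sponge and 0.42 and 1.73 FPKM in wild type females. Within the sponge group, 1 library was thus near the wild type males and the other near the wild type females. The listed transcript of Kcna6 was at 6.52 FPKM in sponge replicate 1. It was listed at 0 in sponge replicate 2, in both wild type females and in knockout replicate 2. The log2 fold change in the knockout was -3.16 ± 0.33 with a limma adjusted p of 0.129, which did not pass. Its location is chr6:126708329-126740674 on the minus strand, in the same stretch of chromosome 6 as Kcna5 at chr6:126532551-126535412. Kcna1 lies between them at chr6:126640397-126646384. In the knockout, the log2 fold change was 0.39 ± 0.49 for Kcna1 and -1.52 ± 1.02 for Kcna5, and neither passed.

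Kcna2 (Kv1.2, an axonal low-threshold channel) differed widely between replicates, at 9.11 and 1.01 FPKM in the knockout, 1.44 and 11.8 FPKM in wild type males, 4.45 and 8.15 FPKM in the sponge and 1.18 and 3.31 FPKM in wild type females. The sponge libraries were both above the wild type females, 2.80-fold in the mean, with a limma adjusted p of 1.0. Kcnd2 (Kv4.2, which carries the A-type current) was at 7.16 and 16.0 FPKM in the knockout and 4.95 and 5.82 FPKM in wild type males, and at 14.1 and 7.59 FPKM in the sponge and 6.53 and 7.40 FPKM in wild type females. Both manipulated groups lay above their wild types. The log2 fold change was 0.89 ± 0.40 in the knockout (limma adjusted p = 0.792) and 0.52 ± 0.32 in the sponge (limma adjusted p = 1.0).

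Kcnd3 (Kv4.3) was at 7.16 and 7.86 FPKM in the sponge and 11.0 and 12.4 FPKM in wild type females, a log2 fold change of -0.58 ± 0.15 with a limma adjusted p of 0.981. Kcnc4 (Kv3.4) was lower in both manipulations without overlap. It was at 5.33 and 6.46 FPKM in the knockout against 12.5 and 8.18 FPKM, and at 4.95 and 5.75 FPKM in the sponge against 7.34 and 8.35 FPKM. The fold changes of -0.70 ± 0.27 and -0.48 ± 0.16 had limma adjusted p of 0.792 and 1.0. Kcnc2 (Kv3.2, a channel of fast-spiking cells) was at 8.28 and 8.87 FPKM in the knockout and 8.21 and 8.59 FPKM in wild type males, overlapping.

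The silent Kv subunits carry no current alone and modify other Kv channels. Kcnf1 (Kv5.1) was at 8.74 FPKM and listed at 0 in the knockout, and at 9.51 and 11.4 FPKM in wild type males. The sponge libraries were listed at 0 and at 10.6 FPKM, and the wild type females at 0 in both. So 4 of the libraries were listed at 0 and the other 4 were at 8.74 FPKM or above. The members most like Kcnf1 over the 8 libraries were Kcnv1 (Pearson r = 0.73), Kcng2 (0.72) and Kcnn1 (0.70), of which Kcnv1 and Kcng2 are also silent Kv subunits.

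Of the EAG, ERG and ELK channels, Kcnh2 (ERG1) had the highest mean and was at 6.20 and 8.39 FPKM in the knockout and 10.6 and 8.40 FPKM in wild type males. The 2 closest libraries differed by under 0.01 FPKM, and the log2 fold change was -0.35 ± 0.24 with a limma adjusted p of 0.792. Kcnh7 (ERG3) went the other way, at 2.78 and 3.61 FPKM against 1.93 and 2.09 FPKM, at 0.47 ± 0.21 and a limma adjusted p of 0.792. The groups of this family did not overlap in 6 of its 8 genes in the knockout, 3 higher and 3 lower, beside 38.5% of all genes, and in 3 of 8 in the sponge, near the 30.8% of all genes. Families of so few genes scattered widely in the knockout. The count was 4 of 5 for silent Kv and 3 of 4 for Kv3 genes, but 0 of 9 for auxiliary and 0 of 4 for SLO genes. Over all members the share was 38.8%.

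The calcium- and sodium-activated channels had small fold changes in both comparisons apart from Kcnn3. The 4 genes of the SLO family had log2 fold changes of -0.06 to 0.10 in the knockout and -0.10 to 0.15 in the sponge. Kcnma1 was at 7.62 and 12.7 FPKM in the knockout, 11.2 and 9.50 FPKM in wild type males, 12.5 and 13.3 FPKM in the sponge and 11.5 and 13.0 FPKM in wild type females. For the 3 small-conductance (SK) genes the sponge gave 0.10 to 0.14. In the knockout Kcnn3 (SK3) was at 5.60 FPKM in replicate 1 and at 1.05 to 1.77 FPKM in all 7 other libraries.

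Of the auxiliary subunits, Kcnab1 (Kvβ1, which speeds the inactivation of Kv1 channels) was at 2.00 and 1.33 FPKM in the sponge and 3.83 and 4.11 FPKM in wild type females. It was at 3.69 and 4.26 FPKM in the knockout and 3.19 and 3.71 FPKM in wild type males. The sponge libraries were the lowest of the 8. The log2 fold change in the sponge was -0.91 ± 0.20 with a limma adjusted p of 0.692. Kcnab2 was steady in males, at 14.6 to 15.1 FPKM, and spread from 9.83 to 19.4 FPKM in females. Kcnip3 (KChIP3, a Kv4 partner also known as the repressor DREAM) was at 10.3 and 3.36 FPKM in the knockout and 13.5 and 3.61 FPKM in wild type males, so it split both groups alike.

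Genes for proteins that bind these channels without the prefix were listed as partners, for example the Kv4 partners Dpp6 and Dpp10 and the GABA-B and GIRK regulator Kctd8. In the knockout 24 were tested, 10 with a positive and 14 with a negative fold change, beside 53.9% positive among all genes, with none called and none at an unadjusted p under 0.05. In the sponge 25 were tested, 5 positive and 20 negative, with a median of -0.12 beside -0.03 for all genes, of which 44.0% were positive. None was called, and 1, Kctd8, was lower at an unadjusted p under 0.05, beside 2.11% of all genes. Kctd8 was at 1.87 and 1.89 FPKM in the sponge and 3.09 and 3.30 FPKM in wild type females, a log2 fold change of -0.54 ± 0.15 with a limma adjusted p of 1.0.

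The 2 manipulations share no library, so their fold changes could be set side by side. Of the 64 members tested in both, 35 had opposite signs and 29 the same sign. Across those genes, which are not independent replicates, Pearson's r was -0.10 and Spearman's rho -0.16, given as a description. In a fit of all 8 libraries, the difference between the effects was tested for 66 members and passed for none, beside 0.0154% of all genes. At an unadjusted p under 0.05 the knockout effect was the higher for 3 members and the lower for 4, beside 3.26% and 1.72% of all genes. The microRNA and the sex differ together between the comparisons, so the 2 cannot be told apart.

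**Figure D3:**
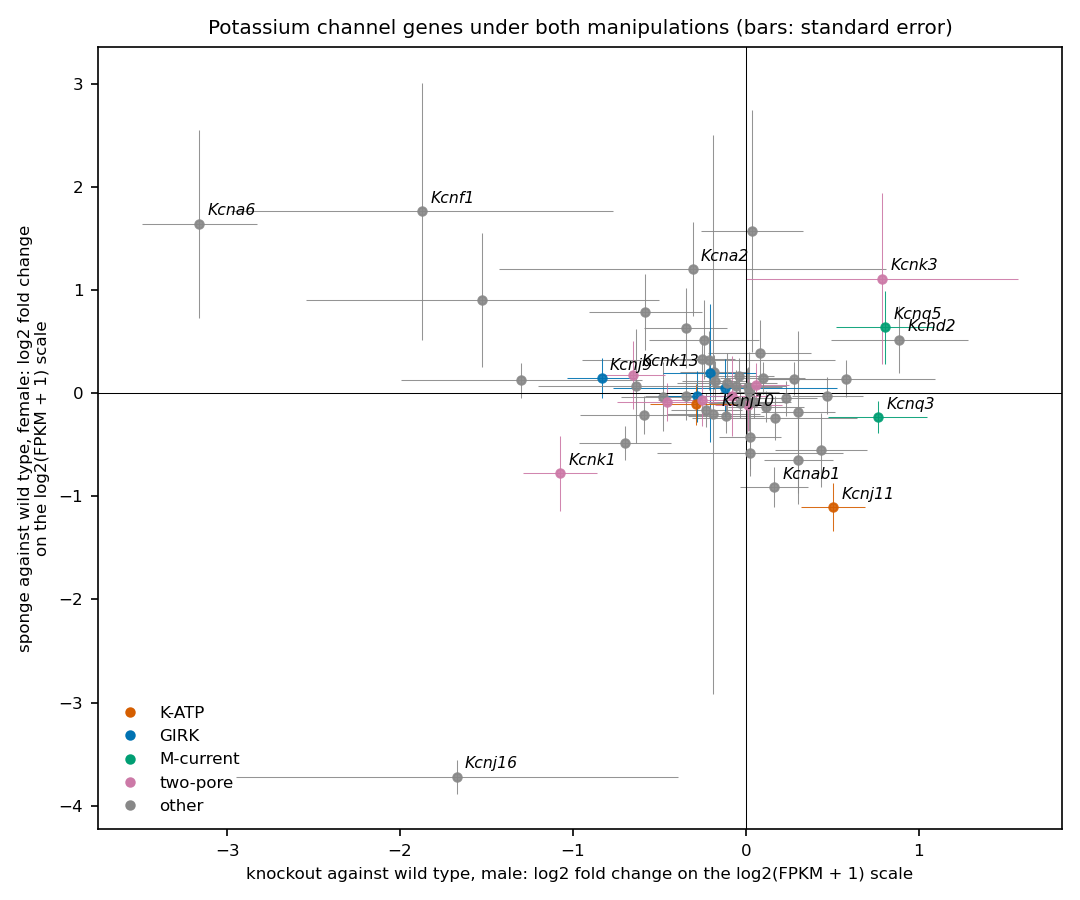
Log2 fold change of potassium channel genes in the knockout (horizontal axis) and in the sponge (vertical axis), both on the log2(FPKM + 1) scale, with bars of 1 standard error, for genes tested in both apart from those not reported singly. Kcnj16 is lowest in the sponge at -3.72 and Kcna6 lowest in the knockout at -3.16, while most genes lie near 0 in both.

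Between the wild type groups, 68 members were tested and 1, Kcnf1, was called, lower in females with a limma adjusted p of 0.0389, beside 0.0686% of all genes called and 0.0458% called lower. Because the females were listed at 0, no fold is given. Its call did not hold when any 1 library was left out, with adjusted p of 0.222 to 0.318, or in the 8-library fit, at 0.888. The sponge females, with 1 library listed at 0 and 1 at 10.6 FPKM, and the knockout males, with the same pattern, covered both states. The groups did not overlap in 25 members (36.8%), beside 34.9% of all genes. Females were higher in 13 of these and lower in 12, beside 24.1% and 10.9% of all genes. At an unadjusted p under 0.05, 3 members were higher and 5 lower in females, beside 2.47% and 2.14%. The fold change was positive for 33 members and negative for 35, with 59.4% positive among all genes, and the medians were -0.02 and 0.06.

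Some members whose manipulated and wild type libraries did not overlap were also without overlap between wild type females and males. Kcnj11 was 1.23 ± 0.16 higher in females on the log2 scale (limma adjusted p = 0.238), 3.66-fold in the mean. Kcnj9 was lower by -1.30 ± 0.20 (limma adjusted p = 0.314) and Kcna6 by -2.55 ± 0.46 (limma adjusted p = 0.419). Kcnd3 was higher at 1.10 ± 0.17 (limma adjusted p = 0.319) and Kcnq3 at 0.73 ± 0.26 (limma adjusted p = 0.920). None of these 5 passed. This comparison shares its wild type libraries with both others, so a wild type pair that stands apart enters both of its comparisons.

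Several channel genes were all but absent in 1 library of a group and at 5 FPKM or more in the other. With under 0.5 FPKM in 1 library and at least 5 FPKM in the other of the same group, 6 of the 72 members (8.33%) split at least 1 group, beside 1.88% of all genes. They were Kcnj10, Kcnj16, Kcnf1, Kcna5 (Kv1.5), Kcne1l (an auxiliary subunit of the KCNE family) and Kcnk3 (TASK-1, an acid-sensitive leak channel). All 6 are among the 26 members with at most 3 exons in GENCODE M21, and none is among the 46 with more. The same held across the tables, where 13.9% of 1710 genes with at most 3 exons split a group and 0.166% of 12026 with more did.

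Kcne1l was listed at 0 in wild type female replicate 2 alone and was at 5.43 to 9.60 FPKM in the other 7. Kcnk3 was at 0.37 FPKM in wild type male replicate 2 and 0.54 FPKM in wild type female replicate 2, and at 3.79 to 7.11 FPKM in the other 6. Kcna5 was at 7.26 FPKM in wild type male replicate 1 and 2.49 FPKM in sponge replicate 2, and listed at 0 in the other 6. No library was low in all of these genes. Between replicates, the median absolute log2 difference was 0.606 for 23 members with at most 3 exons and 0.294 for 43 members with more. Over all genes it was 0.588 and 0.261. The called genes Kcnj16 and Kcnf1 have 3 exons and 1 exon. Kcna6, with the most negative fold change in the knockout, has 3 exons.

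**Figure D4:**
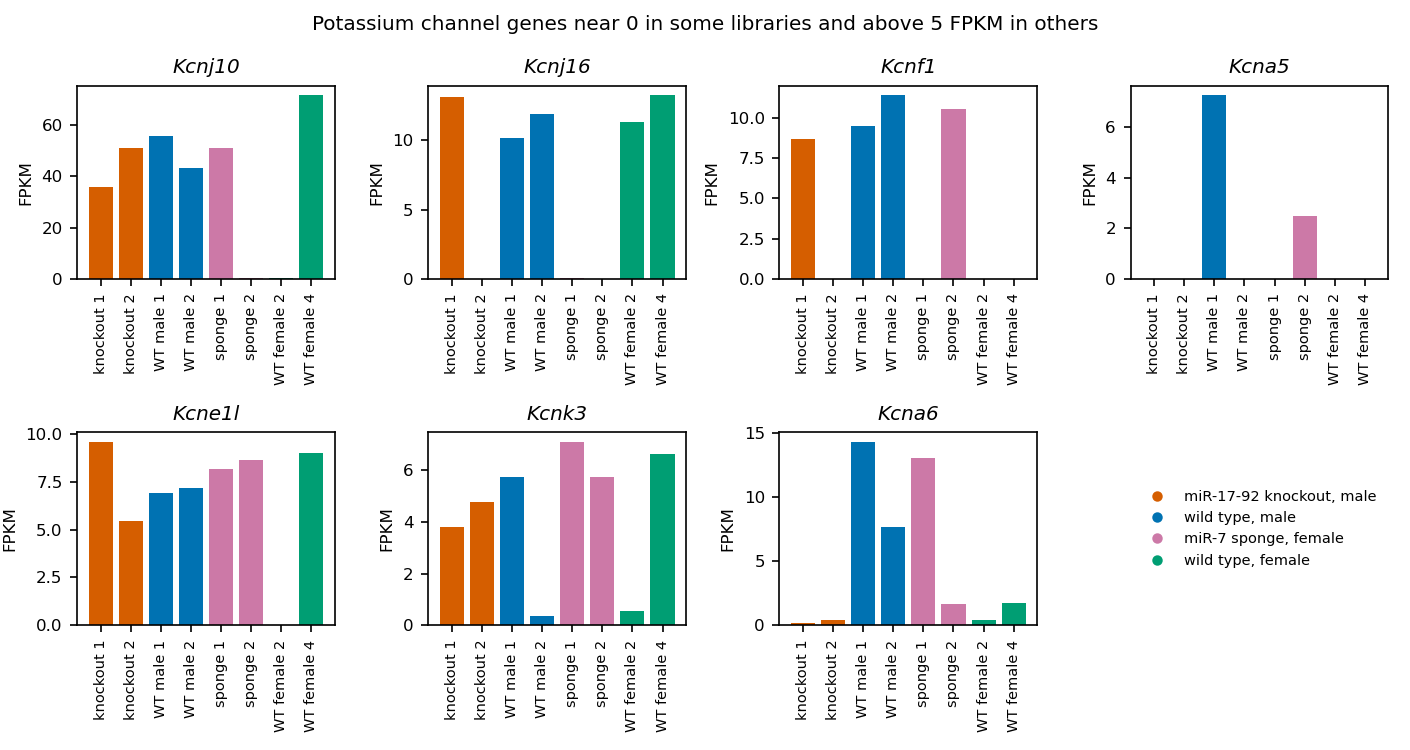
FPKM (bars, from 0) of 7 potassium channel genes in each of the 8 libraries, coloured by group. In Kcnj10, Kcnj16, Kcnf1, Kcna5, Kcne1l and Kcnk3, libraries of 1 group fall on both sides, as in wild type females for Kcnj10 at 0.37 and 71.8 FPKM, and Kcna6 is near 0 in both knockout libraries.

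The transcript tables list 132 transcripts for the 72 members. A single transcript was listed for 42 of the members and more for 30, with up to 8 for a gene. In some genes the level sat on 1 transcript in some libraries and on another in the rest. Kcnt2 (a sodium-activated channel) was carried by transcript Kcnt2-002 in knockout replicate 1, wild type male replicate 1 and sponge replicate 1, at 2.03 to 3.22 FPKM, and by Kcnt2-001 in the other 5 libraries, at 4.05 to 5.13 FPKM. Its gene-level value stayed between 1.76 and 2.94 FPKM.

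Kcnk13 was carried by Kcnk13-001 in both wild type males, at 4.29 and 3.96 FPKM, and by Kcnk13-003 in both knockout libraries, at 2.18 and 2.31 FPKM. In the females Kcnk13-003 carried it in sponge replicate 1 and wild type replicate 2, Kcnk13-001 in wild type replicate 4 and the third listed transcript in sponge replicate 2. The 3 libraries assigned to Kcnk13-001 were at gene levels of 2.52 to 4.22 FPKM and the other 5 at 1.45 to 3.19 FPKM. Whether the transcript assignment or the amount of RNA moves the Kcnk13 level in the knockout was not tested. For Kcnn3 the gene value of 5.60 FPKM in knockout replicate 1 was near the 5.33 FPKM of its listed transcript Kcnn3-001. That transcript was at 3.66 to 6.37 FPKM in all 8 libraries, whereas the gene value was at 1.05 to 1.77 FPKM in the other libraries.

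**Figure D5:**
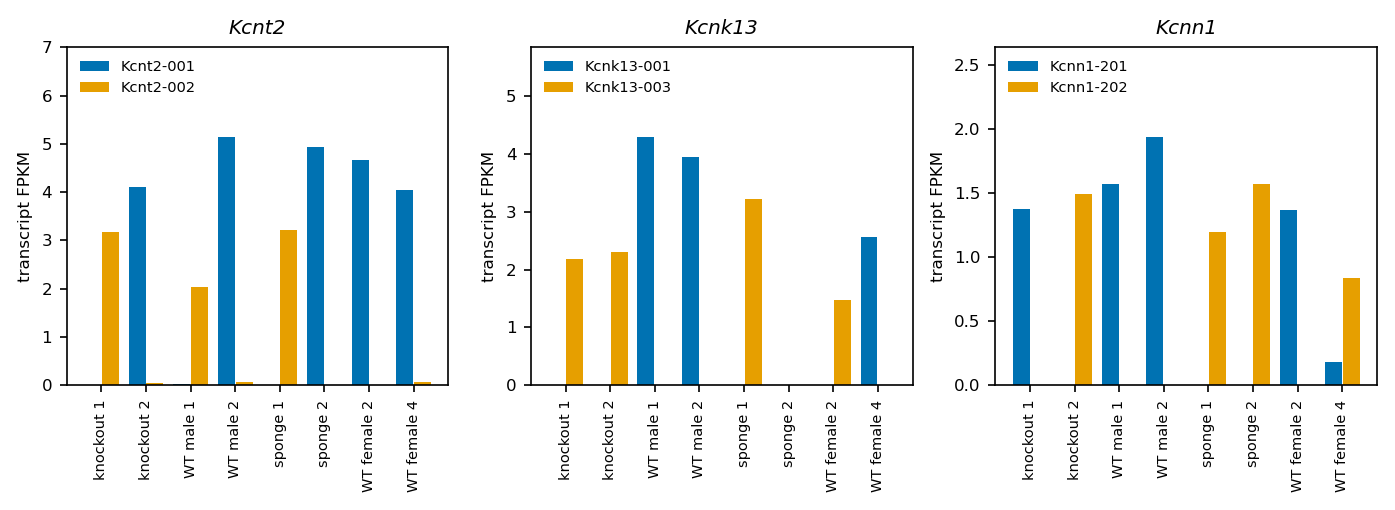
Transcript FPKM (bars, from 0) of pairs of transcripts of Kcnt2, Kcnk13 and Kcnn1 in each of the 8 libraries. Most libraries carry nearly all of a gene's signal on 1 of the transcripts shown. In wild type female replicate 4 Kcnn1 is at 0.18 FPKM on one transcript and 0.84 FPKM on the other, and in sponge replicate 2 neither transcript of Kcnk13 is above 0.

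Matches to the microRNA seeds were counted on the mRNA strand of each gene's longest 3' UTR, taken from GENCODE M21, as the 7 letters GTCTTCC for miR-7, GCACTTT for miR-17 and miR-20a, GCACCTT for miR-18a, TTTGCAC for miR-19 and GTGCAAT for miR-92a. The letters for miR-19 and for miR-17 can overlap by 4 bases. A miR-7 match was found in 14 of the 72 members (19.4%), beside 15.1% of all genes with a 3' UTR. The shares were 15.3% and 15.1% for miR-17 and miR-20a, 13.9% and 10.2% for miR-18a, 22.2% and 14.4% for miR-19 and 9.72% and 8.18% for miR-92a. No match of any of the 5 was found in 40 members, Kcnj16 among them. A match is only a description of the letters in this window.

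The windows below show some of the matches, in Kcnq3, Kcnq5, Kcnf1 and Kcna6. They are in lower case with the match in capitals, as DNA letters of the mRNA strand, from GENCODE M21 transcripts (GRCm38). Kcnf1 had the highest fold change of the members in the sponge, a log2 value of 1.77 ± 1.25. It rests on 1 sponge library at 10.6 FPKM, since the other and both wild type females were listed at 0. Kcna6 had the lowest in the knockout. Matches of Kcnf1 to miR-18a and miR-19 and of Kcna6 to miR-18a are not shown. Of the windows, the first 3 match miR-7 and the last 1 matches miR-17 and miR-20a.
Kcnq3: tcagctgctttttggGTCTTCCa
Kcnq5: actttgtcatttaaaGTCTTCCc
Kcnf1: agaggagctgcttgtGTCTTCCa
Kcna6: ccaggaagaaacttgGCACTTTc

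Of the M-current genes shown with a miR-7 match, Kcnq5 had a log2 fold change of 0.64 in the sponge and Kcnq3 one of -0.23. Kcnq3 also has a match to miR-17 and miR-20a. In the knockout, tested members with a match to the cluster ranged from -3.16 for Kcna6 to 0.76 for Kcnq3. Among the 14 members with a miR-7 match, 4 had a positive fold change in the sponge and the median was -0.09, with 0.07 for the 53 tested members without one. In the knockout, the 25 tested members with a match to any seed of the cluster had a median of -0.05, and 11 of them were positive. The other 42 had a median of -0.15, and 18 of them were positive. Members with a miR-7 match had longer 3' UTRs, with a median of 3895 bases against 1622 bases without. For a match to the cluster the medians were 2604 and 1215 bases. The part of 3' UTR length in these fold changes was not tested.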

How the data were processed

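Per the labels' protocols, oligo(dT)-selected RNA gave strand-specific (dUTP) libraries, read for 150 cycles at each end. The submitters' processing notes name FastQC, cutadapt, StringTie 1.2.3, HISAT2 2.0.4 and the builds mm10 and GRCm38. The strand setting of the counting is not given in the sources used here. The authors deposited FPKM per gene and transcript, which the series design text credits to Ballgown. Read totals are not given, so depth is unknown, and counting intervals cannot be given.

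From these values, genes averaging 0.5 FPKM or more in a comparison's 4 libraries were tested with limma 3.58.1 (R 4.3.3) on log2(FPKM + 1), two-sided, with a mean-variance trend and without a replicate block. Benjamini-Hochberg adjustment ran over all genes tested, and an adjusted p under 0.05 was called. Because of the pseudocount, fold changes of low genes are understated. Values after ± are standard errors with 2 libraries per group. The labels do not say that the pools are from separate litters, so p-values reflect only the spread among these libraries. The fit was checked on simulated data that gave all genes the same spread. Genes near 0 in 1 library of a group and high in the other were not simulated, so the check does not cover them. Same-numbered knockout and wild type male libraries did not deviate together (r = 0.00122 over 13155 genes). An exact 0 can be a failed estimate and is written as listed at 0.

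Any member may be named, except that the results of some single members are not reported here. Members were picked for full statistics per comparison. These were the called members and up to 8 in each direction of largest change whose groups do not overlap and whose mean FPKM is at least 1. The K-ATP, GIRK and M-current genes, the 5 two-pore genes and 10 members of highest mean, and the highest of each other family were added. The full statistics of some members picked this way are not printed. Members, families, partners and markers were chosen with earlier results of these data known. Alternatives were the pseudocount, the filter, the scaling, the libraries fitted, the trend, the replicate block and leaving out each library.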

Additional observations from a re-analysis of the deposited data

How the results depend on the processing

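For the number of potassium channel genes called, the sponge comparison and that between the wild type sexes each went from 1 to 0 in the fit of all 8 libraries, and to between 0 and 0 when any 1 library was left out; fewer samples are fitted there, and calls over all genes also fell to 0. The knockout comparison kept 0 called members in every alternative. The replicate block for the knockout, whose numbers do not pair the samples, left 0 called members, and took calls over all genes from 8 to 0, as quantile normalization did. A pseudocount of 0.1 lowered those calls to 2, and the 8-library fit gave 2 calls in place of 14 in the sponge and 3 in place of 9 between wild types. Calls for the difference between the effects, 2 over all genes, were 4 with a pseudocount of 0.1 and between 0 and 7 with a library left out, none of them a member. Leaving out libraries moved the median log2 fold change in the knockout between -0.086 and -0.013 for all members, -0.55 and -0.31 for GIRK, 0.28 and 0.77 for M-current, and -0.36 and -0.078 for two-pore genes. The knockout K-ATP median was 0.11 with no library left out. It moved between -0.065, without wild type male replicate 1, and 0.28, so its sign was not stable. A filter of mean FPKM of at least 1 took the two-pore median to -0.36. In the sponge, the ranges were -0.033 to 0.025 for all members, -0.15 to 0.27 for GIRK, -0.063 to 0.10 for M-current and -0.14 to 0.22 for two-pore genes. Quantile normalization took the member median to 0.02, and a pseudocount of 0.1 took the K-ATP median from -0.61 to -0.89. The causes of these shifts in medians were not tested. Of the members named, the fold change of 15 of 35 in the knockout, 16 of 35 in the sponge and 14 of 34 between wild types changed sign in at least 1 alternative, in most cases with a library left out, and none became called. Counting only members with over 3 exons, chosen after seeing the data, left both member medians within their replicate spread. Depth is unknown, so the limit of detection for genes listed at 0 cannot be given.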
